A study of Mus musculus with 10 samples.

Results

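The transcripts described here are the long intergenic noncoding RNAs (lincRNAs) encoded on the autosomes and expressed in hearts of Rit1 M90I/+ mice. Members were chosen by 3 criteria: the deposited gene type lincRNA, a position on a numbered chromosome, and an average of 1 FPKM or more across all 10 hearts. H19 and Meg3 were left out of the choice. It kept 134 genes of the 54532 in the table. Of 4915 autosomal lincRNA genes, 3273 were listed at 0 in every heart. The level over all 10 hearts was therefore used for the choice, and levels are given as a description, with no test.

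LincRNAs are RNA polymerase II transcripts that lie between protein-coding genes and encode no long protein. Many are spliced and polyadenylated like messenger RNA. Some scaffold nuclear bodies, some host small nucleolar RNAs (snoRNAs) or microRNAs in their introns, some act in the cytoplasm, and some are named as noncoding although a short protein is made from them.

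All 10 hearts carried 1 Rit1 M90I allele, an activating variant of the RAS-family GTPase RIT1 found in Noonan syndrome, and the hearts came from mice treated for 20 weeks from 4 weeks of age. The 5 vehicle control mice received carrier alone, and the 5 MEKi mice received the MEK inhibitor trametinib at 1 mg/kg once a day. The study bred a conditional Rit1 M90I line to a CMV-Cre deleter, so the variant was not limited to heart muscle cells, and no wild-type heart was analysed here. The labels name the tissue only as heart, so how much of each heart was taken is not known. Polyadenylated RNA was sequenced, and values were deposited as FPKM, fragments scaled to gene length and to the size of each library.

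Depth ran from 13647167 to 18474002 assigned fragments per heart. Cardiomyocyte markers were high in every heart (summed FPKM 15146 to 20801 in the vehicle group and 14976 to 20504 in the MEKi group), and no marker of any of the 10 cell type lists was at 0 in all hearts. Vehicle hearts 4 and 5 and MEKi heart 2 had summed atrial markers of 898, 423 and 740 FPKM, against at most 59.0 elsewhere. Vehicle hearts 4 and 5 also had the highest summed erythroid markers, 21066 and 23823 FPKM, against at most 6909 in the others. All 5 MEKi hearts had Xist at 5.16 to 6.85 FPKM and Y-linked Ddx3y at 0, and all 5 vehicle hearts had Ddx3y at 10.3 to 12.2 FPKM. Treatment and the X- and Y-linked transcripts thus separated the same hearts and cannot be told apart in any difference below. In heart tissue of mixed cells, fewer cells of a type and less RNA per cell cannot be told apart either.

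The second most abundant member, Gm10076, carries a sequence of a coding gene. Its transcript holds the whole coding sequence of Rpl41, a protein of the large ribosomal subunit. The letters below are from GENCODE M21 transcripts, 5′ to 3′, with the start and stop codons of Rpl41 in capitals; they are shown because reads from this stretch could have come from either gene.
Rpl41: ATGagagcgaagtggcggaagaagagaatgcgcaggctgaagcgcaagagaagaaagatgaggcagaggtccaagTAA
Gm10076: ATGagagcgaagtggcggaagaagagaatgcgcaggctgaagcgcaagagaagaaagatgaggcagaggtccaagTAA
All 78 bases were the same (bases 42 to 119 of the Gm10076 transcript), and the longest identical run between both transcripts was 150 bases. Of all 50-base words in Gm10076, 69.9% were also present in Rpl41. RefSeq lists Gm10076 as a pseudogene. Its level is uncertain for this reason.

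Levels of the 134 lincRNAs were low and uneven. The median of the mean FPKM was 2.53 (quartiles 1.60 and 5.41), 56 members lay between 1 and 2 FPKM, 59 between 2 and 10 FPKM, and 19 at 10 FPKM or above. The 2 highest held 24.3% of the summed FPKM and the 10 highest held 49.4%. Just inside the threshold were E130102H24Rik at 1.06 FPKM, AC129328.1 at 1.02 FPKM and Gm27030 at 1.01 FPKM. Just outside were AC133498.1 at 0.9999 FPKM, 4632404H12Rik at 0.993 FPKM and Gm12295 at 0.981 FPKM.

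**Figure D1:**
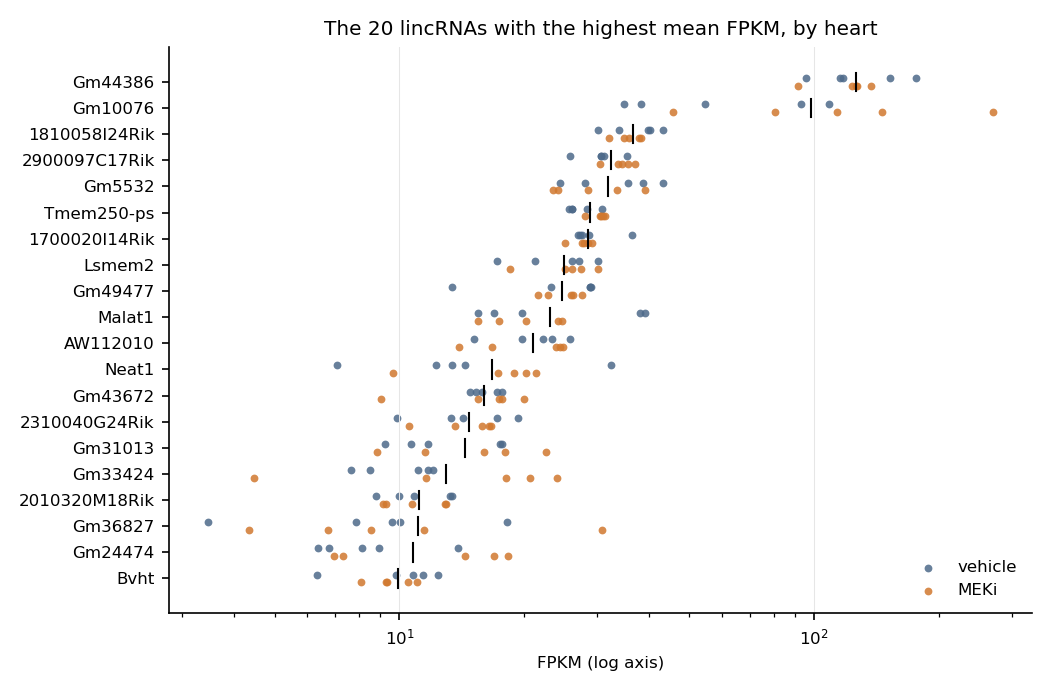
FPKM (log axis) of the 20 lincRNAs with the highest mean, 1 point per heart, vehicle in blue and MEKi in orange, with a black line at the mean of all 10 hearts. Gm44386 and Gm10076 stand above the rest at means of 126 and 98.4 FPKM, and the points of Gm10076 run from 34.9 to 269.5 FPKM.

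Gm44386 (chromosome 6, 86513891 to 86516273, GRCm38), a gene with no described role, was the most abundant at 131 ± 32.4 FPKM under vehicle and 121 ± 17.2 FPKM under MEKi (SD, n = 5 each). Its vehicle hearts were at 176, 117, 95.4, 152 and 115 FPKM and its MEKi hearts at 127, 124, 126, 137 and 91.5 FPKM, so the groups overlapped.
Gm10076 (chromosome 14, 105681828 to 105682211) was at 38.2, 93.0, 54.6, 108 and 34.9 FPKM under vehicle, and at 145, 114, 80.7, 269.5 and 45.6 FPKM in MEKi hearts. Rpl41 was at 397, 210, 194, 376 and 309 FPKM in vehicle hearts 1 to 5, and at 234, 378, 356, 259 and 351 FPKM in MEKi hearts 1 to 5. MEKi heart 4 was the highest of all for Gm10076, above its Rpl41 value, while in the other 9 hearts Rpl41 was the higher of the pair.

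Several of the most abundant members are not noncoding in RefSeq. By symbol or synonym, and with at least 50% of the shorter gene span shared, 99 of the 134 matched RefSeq, and RefSeq lists 91 of these as noncoding, 6 as protein-coding and 2 as pseudogenes. The 6 were 1810058I24Rik, Tmem250-ps, Lsmem2, Gm39469, Gm6712 and Gm46430. 1810058I24Rik (RefSeq synonym Stmp1, a short mitochondrial protein) was at 37.5 ± 5.33 FPKM under vehicle and 35.8 ± 2.53 FPKM under MEKi (SD, n = 5 each). Tmem250-ps was the steadiest of all members. Its vehicle hearts were at 25.7 to 30.8 FPKM and its MEKi hearts at 28.1 to 31.3 FPKM. Lsmem2, which encodes a leucine-rich single-pass membrane protein, was at 24.3 ± 5.10 FPKM under vehicle and 25.4 ± 4.30 FPKM under MEKi (SD, n = 5 each).

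Most members overlapped no other gene. Of the 134, 88 overlapped none in the table, 46 overlapped at least 1, and 16 overlapped a gene of at least 0.5 FPKM. The median distance to the nearest protein-coding gene was 9770.5 bases, with 36 members within 1 kb and 17 more than 100 kb away. A coding gene started within 1 kb on the opposite strand, pointing away, for 23 members. Whether the counting used strand is not given in the sources used here, so for members that overlap a gene on the other strand the level is uncertain.

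RefSeq promoters (GRCm38.p6, 250 bases before to 50 after the start) were found for 85 of the 134 members by symbol. Their median GC content was 51.7%, against 52.7% over 27025 genes. The 15 with a divergent coding gene had a median of 70.7% GC and the other 70 had 49.8%. The GC box (GGGCGG, either strand) was present in 26 of the 85 (30.6%, against 35.9% of all promoters), the TATA box (TATAAA) in 14 (16.5%, against 14.2%), and the AP-1 motif (TGACTCA or TGAGTCA, either strand) in 2 (2.35%, against 5.17%), those of Gm33609 and Gm12092. The cAMP response element (TGACGTCA) was present in 2 (2.35%, against 1.88%), the ETS motif (CCGGAAGT) in 2 (2.35%, against 4.00%) and the E-box (CACGTG) in 3 (3.53%, against 7.24%), each on either strand. These letters were searched alone and no site was shown to be bound.

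The comparison of MEKi with vehicle hearts asks whether 20 weeks of MEK inhibition changed lincRNA levels. No member passed an adjusted p of 0.05 (limma on log2(FPKM + 0.1), Benjamini-Hochberg over all 12602 genes averaging 0.5 FPKM or more), while 10 genes did so in all, which is 0.0794% of those tested. Without X, Y and mitochondrial genes, 0 of 12178 genes passed and 924 had an unadjusted p under 0.05, so 0.0794% is no background for autosomal genes. At an unadjusted p under 0.05 there were 9 members, 6.72% of the 134, against 7.62% of all genes tested, and voom on recovered fragments gave 8 members and 0 past the adjusted threshold. Array weights gave 17 members (12.7%, against 9.51% of all genes). The smallest adjusted p of a member was 0.194. The count of 9 became 15 (11.2%, against 9.84% of all genes) without vehicle heart 1, and 14 (10.4%) without vehicle heart 4, MEKi heart 1 or MEKi heart 5, against 7.49%, 6.97% and 6.79% of all genes. It was also 14 without the 3 hearts with high atrial markers, against 6.48% of all genes. The median difference of the 134 (MEKi minus vehicle, log2 scale) was 0.055, beside 0.011 over all genes tested, and 73 members were higher and 61 lower in MEKi hearts (54.5% positive, against 52.1% of all genes). An absolute log2 difference above 1 was seen in 5 of the 134. No share over all genes is given beside this count, which is a description only. The 5 were 2310026L22Rik, Gm13056, Gm37986, Gm42208 and AL805899.2, named after their values were seen. They lay at 1.09 to 5.09 FPKM, and all but AL805899.2 lay at 1.09 to 1.23 FPKM, just above the threshold. All differences are on the log2(FPKM + 0.1) scale, which understates changes of low genes.

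**Figure D2:**
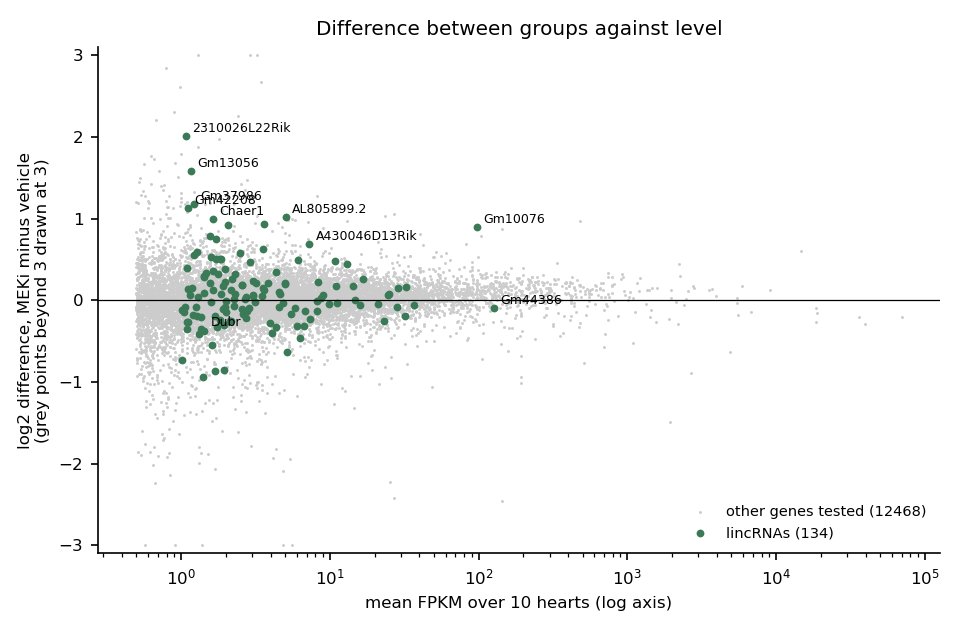
Log2 difference, MEKi minus vehicle, against mean FPKM (log axis) for the 134 lincRNAs (green) and the other genes tested (grey, drawn at 3 where beyond 3). The 5 lincRNAs beyond 1 lie at or below 5.09 FPKM, and the median of the 134 was 0.055.

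All 5 MEKi hearts lay above all 5 vehicle hearts for 2 members, A430046D13Rik and 2310026L22Rik, and below them for 1, Dubr. 2310026L22Rik was below 1 FPKM in every vehicle heart, so it passed the 1 FPKM threshold only through its MEKi values. The share of members with MEKi higher therefore rests in part on how members were chosen. Among all genes tested, the share was 0.794% for MEKi higher and 0.849% for MEKi lower, beside 1.49% and 0.746% of the 134. Together these 3 (2.24%, against 1.64% of all genes) became 5 without vehicle heart 5 (3.73%, against 2.52%), 7 without MEKi heart 5 (5.22%, against 2.51%) and 9 without the 3 hearts with high atrial markers (6.72%, against 7.25%), where fewer hearts have to separate. The first 100 bases of the longest transcript of each are shown, from GENCODE M21 on GRCm38, because they identify the RNAs that separated the groups; they lie in the first of 2 exons in each case.
A430046D13Rik (chr10:128499364-128499463, + strand): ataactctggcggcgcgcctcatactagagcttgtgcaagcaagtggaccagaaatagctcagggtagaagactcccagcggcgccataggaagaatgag
2310026L22Rik (chr4:138215714-138215813, + strand): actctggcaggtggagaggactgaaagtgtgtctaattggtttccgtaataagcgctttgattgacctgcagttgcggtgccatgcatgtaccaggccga
Dubr (chr16:50732629-50732728, - strand): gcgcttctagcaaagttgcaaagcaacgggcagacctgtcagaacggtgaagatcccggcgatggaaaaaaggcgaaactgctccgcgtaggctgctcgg

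A430046D13Rik (chromosome 10, 128499364 to 128504242), a gene with no described role, had the smallest p. Vehicle hearts were at 5.15, 6.98, 5.28, 6.19 and 4.27 FPKM and MEKi hearts at 7.57, 10.6, 8.25, 9.55 and 8.99 FPKM. The lowest MEKi heart lay above the highest vehicle heart. The means were 5.57 ± 1.04 and 8.98 ± 1.16 FPKM (SD, n = 5 each), and the log2 difference was 0.69 (SE 0.14, 95% interval 0.39 to 0.99, adjusted p = 0.194 by limma). With 124 to 362 fragments per heart its count was the highest of these 3 members. Myl6b, a myosin light chain gene that starts 679 bases away on the other strand, was at 1.45 ± 0.545 and 1.46 ± 0.60 FPKM (SD, n = 5 each; log2 difference 0.01, SE 0.36).

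2310026L22Rik (chromosome 4, 138215714 to 138216189) was at 0.891, 0, 0.352, 0.359 and 0.687 FPKM under vehicle, and at 1.46, 2.62, 1.53, 1.54 and 1.43 FPKM in MEKi hearts. The log2 difference was 2.01 (SE 0.51, adjusted p = 0.318 by limma) and depended on the pseudocount, at 0.91 with 1 FPKM and 2.79 with 0.01 FPKM. No heart had more than 18 fragments, and vehicle heart 2 had 0, which allows up to 3 fragments. It ends 107 bases before Hp1bp3, a gene of a heterochromatin-binding protein, on the same strand. Hp1bp3 was at 8.73 ± 0.701 FPKM under vehicle and 9.36 ± 0.775 FPKM under MEKi (SD, n = 5 each; log2 difference 0.10, SE 0.09).

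Dubr (chromosome 16, 50719294 to 50732773), a lincRNA studied in muscle cell differentiation, was the member with separate groups and lower MEKi values. Vehicle hearts were at 1.64, 1.41, 1.82, 1.32 and 1.98 FPKM and MEKi hearts at 1.18, 1.30, 1.09, 1.27 and 1.31 FPKM. The highest MEKi heart and the lowest vehicle heart were 1.31 and 1.32 FPKM, so the groups were barely separate. The log2 difference was -0.37 (SE 0.14, 95% interval -0.67 to -0.07, adjusted p = 0.554 by limma), with 75 to 135 fragments per heart.

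AL805899.2 (chromosome 4, 88995118 to 89039192) was at 1.78 to 5.00 FPKM under vehicle and 4.92 to 9.05 FPKM under MEKi. Only the highest vehicle heart and the lowest MEKi heart overlapped. The log2 difference was 1.02 (SE 0.26, adjusted p = 0.318 by limma), with 40 to 209 fragments per heart.
Gm34934 (chromosome 14, 46866576 to 46882757) was at 1.5 ± 0.308 FPKM under vehicle and 2.17 ± 0.393 FPKM under MEKi (SD, n = 5 each; log2 difference 0.51, SE 0.16, adjusted p = 0.463 by limma). It starts 97 bases from Samd4, an RNA-binding translational regulator, in the opposite direction. Samd4 was at 4.21 ± 1.11 and 4.24 ± 0.204 FPKM (SD, n = 5 each; log2 difference 0.04, SE 0.15).
Of the others, Gm13056 (log2 difference 1.58, SE 0.68), Gm19277 (0.75, SE 0.33) and Snhg12 were higher, and AI839979 was lower (-0.54, SE 0.20), with adjusted p of 0.557 to 0.652 by limma and overlapping groups in all 4. Gm13056 averaged 1.18 FPKM over all 10 hearts, just above the threshold, so its choice as a member was not independent of the values compared here. Its difference was 0.99 without vehicle heart 5, 0.76 without the 3 atrial hearts, 0.67 with a pseudocount of 1 and 2.33 with 0.01. Gm19277 was at 0.21 without the atrial hearts and 0.47 with a pseudocount of 1.

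The promoters of Dubr, a lone start, and Gm34934, a start shared with a coding gene, are shown. Both are from RefSeq on GRCm38.p6, 5′ to 3′ in the direction of the lincRNA, with GC boxes on either strand in capitals. No other of the searched motifs was in them.
Dubr (chr16:50732724-50733023, - strand): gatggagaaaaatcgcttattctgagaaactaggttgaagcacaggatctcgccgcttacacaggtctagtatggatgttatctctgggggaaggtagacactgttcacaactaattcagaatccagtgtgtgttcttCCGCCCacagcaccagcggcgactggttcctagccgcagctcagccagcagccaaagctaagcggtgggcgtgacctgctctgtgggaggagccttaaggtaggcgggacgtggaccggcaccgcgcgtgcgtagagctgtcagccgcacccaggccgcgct
Gm34934 (chr14:46882750-46883049, - strand): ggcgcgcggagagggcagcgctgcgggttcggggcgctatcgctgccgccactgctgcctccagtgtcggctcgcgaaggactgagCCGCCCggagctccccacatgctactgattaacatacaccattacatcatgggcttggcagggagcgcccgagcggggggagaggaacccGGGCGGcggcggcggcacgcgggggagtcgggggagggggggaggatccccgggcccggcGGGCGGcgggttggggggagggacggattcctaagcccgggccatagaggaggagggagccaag
Their GC contents were 57.3% and 72.3%. Dubr lay above the upper quartile, 54.8%, of the 70 members without a divergent coding gene, so it is not typical of lone starts.

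**Figure D3:**
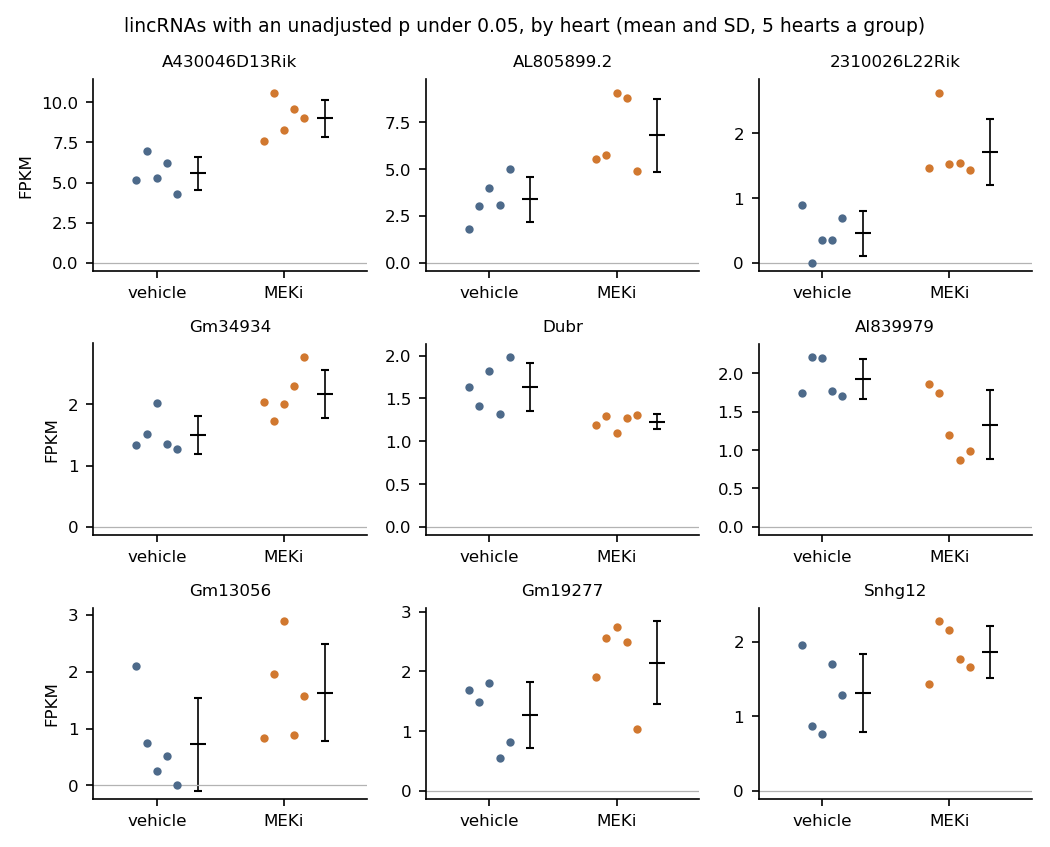
FPKM of the 9 lincRNAs with an unadjusted limma p under 0.05, 1 point per heart, with the mean and SD of 5 hearts beside each group and a grey line at 0. A430046D13Rik, 2310026L22Rik and Dubr have groups that do not overlap, and none of the 9 passed an adjusted p of 0.05.

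Malat1 and Neat1, the RNAs of nuclear bodies, had wide spreads within groups and no call between them. Each had 1 value per heart for the gene, which has 4 transcripts in GENCODE M21, so long and short forms were not told apart. RNA was poly(A)-selected, so any form without a poly(A) tail would be undercounted. Malat1 (chromosome 19, 5795690 to 5802672), an RNA of nuclear speckles, was at 39.0, 16.9, 15.5, 19.8 and 38.0 FPKM under vehicle, and at 17.4, 20.2, 24.6, 24.2 and 15.5 FPKM in MEKi hearts. Vehicle hearts 1 and 5 stood above the other 8. Its log2 difference was -0.25 (SE 0.27, 95% interval -0.84 to 0.34, adjusted p = 0.866 by limma). It was -0.07 without vehicle heart 1, -0.08 without vehicle heart 5, -0.41 without vehicle heart 3, -0.16 without MEKi heart 5 and -0.12 without the 3 atrial hearts.
Neat1 (chromosome 19, 5824708 to 5845478), the scaffold of paraspeckles, was at 32.4, 14.4, 7.08, 12.3 and 13.4 FPKM under vehicle, and at 18.9, 21.4, 17.3, 20.2 and 9.63 FPKM in MEKi hearts. Vehicle heart 1 was again the highest. The log2 difference was 0.26 (SE 0.34, 95% interval -0.48 to 1.01, adjusted p = 0.895 by limma). It was 0.56 without vehicle heart 1, 0.02 without vehicle heart 3, 0.46 without MEKi heart 5 and 0.09 without the 3 atrial hearts. Miat, the other nuclear body RNA listed, averaged 0.00188 FPKM and was no member.
Vehicle heart 1 also had the largest share of fragments in the 134 lincRNAs, 0.239%, against 0.153% to 0.204% in the other 9 hearts. Neat1 alone held 11333 of its 39796 lincRNA fragments, so this share largely repeats the values above. By summed FPKM of the 134, MEKi hearts 4 and 2 were higher, at 1146 and 981 FPKM against 974 FPKM in vehicle heart 1. These sums include Gm10076, whose level is uncertain, at 269.5, 114 and 38.2 FPKM in the same hearts. Their order rested on that gene. The part of vehicle heart 1 in other results was not tested, beyond leaving it out of the comparison.

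Of 5 nuclear speckle proteins, 1 was higher and 4 lower, with a median of -0.04 and none with an unadjusted p under 0.05.

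The snoRNA hosts are spliced RNAs whose introns carry snoRNAs, and the exons that remain are targets of nonsense-mediated decay. Of 19 listed hosts, 11 were tested and 4 were members. The 11 divided into 6 higher and 5 lower, with a median of 0.02. Of them, 1 had an unadjusted p under 0.05, beside 7.62% of all genes tested. Snhg6 (chromosome 1, 9941959 to 9944118) was steady, at 8.89 ± 1.25 FPKM under vehicle and 9.26 ± 0.583 FPKM under MEKi (SD, n = 5 each).
Snhg12 (chromosome 4, 132308623 to 132311024), whose span holds Snora16a, Snora44, Snora61 and Snord99, was at 1.95, 0.866, 0.761, 1.70 and 1.29 FPKM under vehicle, and at 1.43, 2.28, 2.15, 1.77 and 1.67 FPKM in MEKi hearts. The groups overlapped, and the log2 difference was 0.53 (SE 0.24, adjusted p = 0.652 by limma).
Snhg18 (chromosome 15, 32240565 to 32244662), which spans Snord123, was at 7.44, 6.11, 5.4, 7.64 and 6.66 FPKM under vehicle, and at 5.22, 6.63, 6.19, 4.10 and 4.63 FPKM in MEKi hearts. The difference was of the other sign and also within overlapping groups (-0.32, SE 0.15, adjusted p = 0.652 by limma). Snhg20 was at 1.85 ± 0.855 and 1.56 ± 0.463 FPKM (SD, n = 5 each; log2 difference -0.20, SE 0.30). Among 10 decay factors 2 were higher and 8 lower, with a median of -0.08. Of the 10, 1 (Smg8, -0.31, SE 0.13) had an unadjusted p under 0.05, beside 7.62% of all genes tested. Of 4 core proteins of box C/D snoRNPs, 1 was higher and 3 lower, with none at that threshold.

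Among cytoplasmic regulators, both members were abundant and steady. 2900097C17Rik (chromosome 2, 156388065 to 156392979; Norad in RefSeq), which binds Pumilio proteins, was at 30.6, 30.6, 35.4, 31.2 and 25.8 FPKM under vehicle, and at 34.4, 33.6, 30.5, 37.1 and 35.5 FPKM in MEKi hearts. The groups overlapped, and the log2 difference was 0.16 (SE 0.10, 95% interval -0.05 to 0.37). Of its 50-base words, 39.5% are also in Gm7292, a gene under 0.5 FPKM in these hearts. 1700020I14Rik (chromosome 2, 119594297 to 119607502; Cyrano), which directs decay of a microRNA, was at 29.4 ± 4.00 and 27.7 ± 1.56 FPKM (SD, n = 5 each), a log2 difference of -0.08 (SE 0.10, 95% interval -0.29 to 0.13). Vehicle heart 3, at 36.5 FPKM, was the highest.

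The 2 members studied in the heart gave no call. Bvht (chromosome 18, 61639542 to 61647472), or braveheart, a lincRNA of cardiac lineage commitment, was at 10.2 ± 2.33 FPKM under vehicle and 9.65 ± 1.15 FPKM under MEKi (SD, n = 5 each; log2 difference -0.05, 95% interval -0.41 to 0.32). Chaer1 (chromosome 5, 77138471 to 77140252), an epigenetic regulator of cardiac hypertrophy, was at 1.19, 2.13, 1.73, 1.65 and 0 FPKM under vehicle, and at 2.60, 2.33, 1.15, 1.80 and 1.76 FPKM in MEKi hearts. Its log2 difference of 1.00 (SE 0.72, adjusted p = 0.777 by limma) rested on vehicle heart 5, which had 0 fragments, and was 0.17 without that heart, and 0.10 without the 3 atrial hearts.
Mir142hg, host of a microRNA of blood cells, had 3 to 14 fragments per heart and was at 1.5 ± 0.270 and 1.66 ± 0.942 FPKM (SD, n = 5 each). AW112010, a transcript of immune cells, was at 21.2 ± 4.03 and 20.7 ± 5.05 FPKM (SD, n = 5 each). Summed macrophage markers were at 96.7 to 178 FPKM under vehicle and 96.5 to 116 FPKM under MEKi, and their part in these values was not tested.

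**Figure D4:**
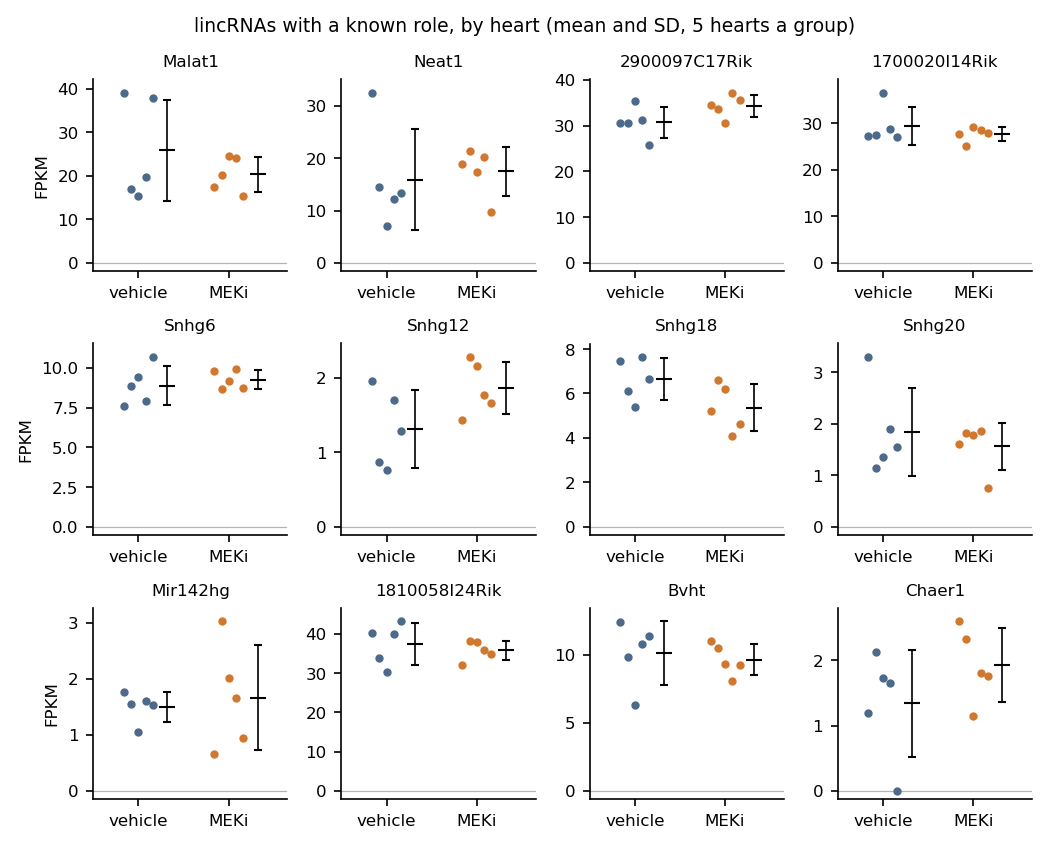
FPKM of 12 lincRNAs with a known role, 1 point per heart, with the mean and SD of 5 hearts beside each group. Malat1 is high in vehicle hearts 1 and 5 (39.0 and 38.0 FPKM), Neat1 in vehicle heart 1 (32.4 FPKM), and the groups overlap in all 12.

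Some members lie beside genes of heart development. Gm34030 lies 7059 bases from Hand2, a transcription factor of the developing ventricles, and was at 4.71 ± 1.69 and 5.33 ± 1.55 FPKM in vehicle and MEKi hearts, with Hand2 at 12.9 ± 0.607 and 13.1 ± 1.68 FPKM (SD, n = 5 each). Gm43050 starts 748 bases from Tbx5, a T-box factor of the developing heart, in the opposite direction. It was at 3.81 ± 0.957 and 4.86 ± 1.19 FPKM, and Tbx5 at 4.62 ± 0.941 and 4.18 ± 0.593 FPKM (SD, n = 5 each). Chaer1 lies 23350 bases from Hopx, a homeodomain-only cofactor, at 119.8 ± 24.2 and 139.4 ± 12.9 FPKM (SD, n = 5 each). In none of these pairs did either gene have an unadjusted p under 0.05.
Over the nearest coding genes of the 134 members, 98 pairs had a tested neighbour, and lincRNA and neighbour had differences of the same sign in 54. Of these 98 neighbours, 8 (8.16%) had an unadjusted p under 0.05 against 7.62% of all genes, and none passed the adjusted threshold. For divergent pairs the same sign was seen in 12 of 22. There 1 neighbour (4.55%), Zfp592, had an unadjusted p under 0.05 (log2 difference -0.31).
Spry2, a feedback inhibitor of receptor tyrosine kinase signalling, is the coding gene nearest to Gm10076 at 209736 bases. It had a log2 difference of -0.22 (adjusted p = 0.630 by limma), while Gm10076 had 0.89 (SE 0.45, adjusted p = 0.670).

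The spread between hearts was wide for most members. The median residual SD on the log2 scale was 0.481 over the 134 and 0.246 over all genes tested. Low counts alone gave a median SD of 0.219, since a member had a median of 49 fragments per heart and 39 members had fewer than 10 in at least 1 heart. The spread exceeded 2 times the counting SD in 77 members and was under 1.5 times in 21. The counting SD came from fragment counts with no pseudocount, so the scales differ for members with few fragments. Among genes with at least 100 fragments in every heart, the median was 0.306 over 26 members and 0.202 over 8171 genes.
The smallest spreads were those of Tmem250-ps (0.0907), 2900097C17Rik (0.136), 1700020I14Rik (0.141), Snhg6 (0.153) and Gm20300 (0.161). The largest were those of Gm11752 (1.73), Gm44698 (1.41), Chaer1 (1.35), Gm13056 (1.27) and Gm12092 (1.22), which had few fragments in some hearts. Gm11752, for example, was at 0 in vehicle heart 3 and 6.33 FPKM in vehicle heart 5.
The well counted members Neat1, Malat1 and Gm36827 had spreads of 0.642, 0.498 and 0.955, above their counting SDs of 0.0216, 0.0304 and 0.117. Gm10076 had a spread of 0.853 and a counting SD of 0.0721. That counting SD takes no account of reads that could have come from Rpl41, so the spread of Gm10076 is uncertain too.

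**Figure D5:**
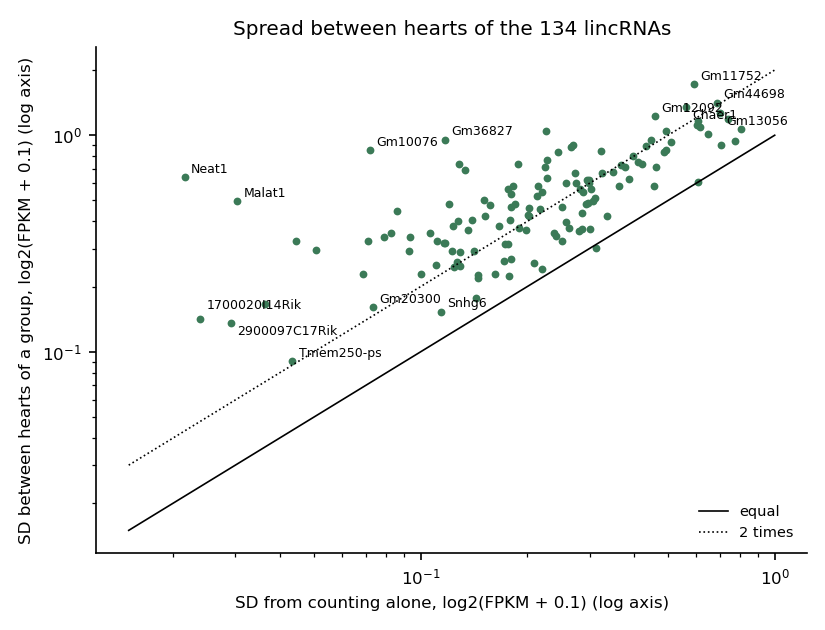
Residual SD of log2(FPKM + 0.1) between hearts of a group against the SD that counting alone gives, both on log axes, for the 134 lincRNAs, with lines where both are equal and where the first is 2 times the second. In 77 members the point lies above the dotted line. The counting SD was computed from fragment counts with no pseudocount, although its axis names log2(FPKM + 0.1).

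Single hearts led or trailed for many members. MEKi heart 5 had the lowest value of 31 members, 23.1%, against 10.9% of all genes tested. MEKi heart 2 had the highest of 22 (16.4%, against 7.56% of all genes), and vehicle heart 1 also of 22 (16.4%, against 14.2%). MEKi heart 5 had the lowest summed cardiomyocyte markers, 14976 FPKM, and MEKi heart 2 was a heart with high atrial markers. Vehicle heart 5 had nearly the same cardiomyocyte sum, 15146 FPKM, but the lowest value of only 19 members (14.2%, against 17.2% of all genes). Gm12092, Gm45353 and Gm26808 had their 3 highest values in the 3 hearts with high atrial markers, which is 2.24% of members and 1.93% of all genes tested. The part of these features in the other results was not tested.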

How the data were processed

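RNA was poly(A)-selected from 10 hearts, 5 per group by the labels. Per the labels, reads were processed with fastp, STAR 2.5 and HTSeq 0.6.1 on mm10; their parameters are not given in the sources used here. The authors deposited FPKM, scaled by gene length and library size. FPKM multiplied by length were whole multiples of 1 step (100% within 0.01), which gave fragments. Coordinates were those of GRCm38: 98.3% of 54409 genes matched GENCODE M21.

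The test was limma 3.58.1 (R 4.3.3; eBayes with a trend, two-sided, Benjamini-Hochberg) on log2(FPKM + 0.1), over the 12602 genes averaging 0.5 FPKM or more. Adjusted and unadjusted p were read at a threshold of 0.05. Summaries used Python 3.11.15, numpy 2.4.6, pandas 2.3.3 and scipy 1.17.1. Nothing says that hearts were processed apart, so p-values measure the spread between these hearts. The 95% intervals are limma's and measure that spread too, and the limit of 3 fragments for a 0 covers counting error only. The fit was tested on simulated data. At an adjusted p under 0.05 it recovered 20 of 195 genes changed 1.5-fold, 171 of 191 changed 2-fold and 186 of 187 changed 4-fold. False calls were 3, 9 and 12. The simulation set 1 dispersion for all genes, so these shares need not hold for lincRNAs with wider spreads. Most changes of 1.5-fold would thus be missed. Larger changes could be missed as well for lincRNAs with wider spreads.

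Members and gene lists were chosen with earlier results of these data known. Members named are the 10 highest by mean, those with an unadjusted p under 0.05 or groups that do not overlap, those in the gene lists, the 3 on each side of the threshold, the 5 largest and 5 smallest spreads, those with a heart far from its group, and the coding gene nearest to a member of the first 2 kinds. Others were named after their values were seen. Alternatives were other pseudocounts, filters, scalings and weights, voom, a replicate block, leaving out hearts or gene classes, and subsets of members. Protein sequences were not used here. The paraspeckle proteins are not reported here.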

Additional observations from a re-analysis of the deposited data

Results flagged for a closer look

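Each of the 268 groups of 5 hearts (134 lincRNAs, 2 groups) was examined for a heart far from the other 4, and 19 were marked because the gap from that heart to its nearest neighbour was over 0.71 of the group's range. A rate of 1 in 20 groups, which gives 13.4, holds for normally distributed values. The rule was applied to FPKM, whose distribution was not checked, so 13.4 is not a chance number for these groups. MEKi heart 5 held 7 of the 19 and vehicle heart 1 held 5, and the cause was not tested.

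In MEKi heart 5, Gm36827 was at 30.7 FPKM (others 4.34 to 11.5), 9230112J17Rik at 7.72 FPKM (others 2.17 to 3.34), Gm45495 at 3.71 FPKM (others 2.33 to 2.71), Gm28651 at 2.61 FPKM (others 1.49 to 1.82) and 2700046G09Rik at 1.82 FPKM (others 0.954 to 1.10). It was low for 4930429F24Rik, at 4.35 FPKM (others 8.13 to 9.63), and for Snhg20, at 0.751 FPKM (others 1.61 to 1.86). The 5 high values rest on 47 to 603 fragments. 9230112J17Rik and 2700046G09Rik each overlap an expressed gene on the other strand.

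Vehicle heart 1 was high for Neat1 at 32.4 FPKM (others 7.08 to 14.4), Lppos at 9.75 FPKM (others 4.17 to 5.37), Gm13943 at 6.58 FPKM (others 3.56 to 4.21), Gm26532 at 6.29 FPKM (others 1.46 to 2.85) and Gm7160 at 2.43 FPKM (others 0.832 to 1.24). Lppos overlaps Lpp on the other strand.

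In the other hearts, 1700020I14Rik was at 36.5 FPKM in vehicle heart 3 (others 27.0 to 28.6) on 4305 fragments, and Gm38832 was at 5.27 FPKM there (others 1.19 to 1.98). Gm34276 was at 3.60 FPKM in vehicle heart 4 (others 0.320 to 1.26) and Gm27030 at 2.81 FPKM in vehicle heart 5 (others 0.598 to 1.15). Tmem250-ps was at 28.1 FPKM in MEKi heart 1 (others 30.5 to 31.3). In MEKi heart 2, C230035I16Rik was at 3.56 FPKM (others 1.46 to 1.80) and 2310026L22Rik at 2.62 FPKM (others 1.43 to 1.54) on 18 fragments.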

How the results depend on the processing

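No lincRNA passed an adjusted p of 0.05 in any alternative (smallest, 0.130 for 2310026L22Rik), whereas the number with an unadjusted p under 0.05, 9 as reported, ran from 7 (pseudocount 0.01; 5.22%, against 7.55% of all genes) to 17 (array weights; 12.7%, against 9.51%). It was 14 without the 3 hearts with high atrial transcripts (10.4%, against 6.48% of all genes), and 8 to 15 when each heart was left out in turn. It was 15 without vehicle heart 1 and 14 without vehicle heart 4, MEKi heart 1 or MEKi heart 5. By subset, it was 2 of the 78 members with a mean of at least 2 FPKM (2.56%) and 4 of the 75 with at least 1 FPKM in every heart (5.33%). Of the 88 overlapping no other gene it was 7 (7.95%). The share over all genes tested, with none of these limits, was 7.62%. The number with groups that do not overlap, 3 as reported, was 9 without the hearts with high atrial transcripts, 1 of the members at 2 FPKM or above, and 3 to 7 when each heart was left out, 7 without MEKi heart 5 and 5 without vehicle heart 5. It is the same in every fit that keeps the order of the hearts, and no value was computed for those. The median log2 difference ran from -0.004 to 0.077 when each heart was left out, below 0 without vehicle heart 3 or MEKi heart 2. It was 0.131 on a TPM scale, where the median of all genes was 0.086. Without X, Y and mitochondrial genes, 0 genes of 12178 passed the adjusted threshold, with 924 at an unadjusted p under 0.05. The cause of these changes was not tested, beyond the smaller numbers of hearts or members.

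The replicate number as a block gave 13 lincRNAs (9.70%, against 6.12% of all genes) with an unadjusted p under 0.05 and 0 adjusted, and 4 genes in all instead of 10. The numbers did not pair the hearts: same-numbered hearts had correlations of -0.15 to -0.02 over all genes, and none was closest to its own number.

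Of 26 named members under 21 alternatives, 18 kept their direction throughout. The others had small differences whose sign changed. Mir142hg was at 0.027 with pseudocount 1, 0.053 on the TPM scale, 0.0079 with quantile normalization, and -0.27 to 0.25 when each heart was left out in turn. Bvht was at 0.032 on the TPM scale, 0.0301 without the atrial hearts, and -0.20 to 0.035 with a heart left out. 1810058I24Rik was at 0.0205 on the TPM scale and 0.024 without the atrial hearts. Gm49477 was at -0.0086 with array weights, -0.17 without the atrial hearts, and -0.14 to 0.13 with a heart left out. With a heart left out, the range was -0.20 to 0.017 for Gm44386, -0.046 to 0.18 for Lsmem2, -0.11 to 0.00066 for 1700020I14Rik and -0.34 to 0.029 for Snhg20. Chaer1 was at 0.17 without vehicle heart 5, and 0.097 without the atrial hearts. 2310026L22Rik ran from 0.91 (pseudocount 1) to 2.79 (pseudocount 0.01).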
